A study of Mus musculus with 18 samples.

Results

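The oxygen response of IL-6-treated mouse chondrocytes was described from 6 of the 18 RNA sequencing libraries of the series. They are the 3 libraries of cells at 1% oxygen (hypoxia) and the 3 of cells at 21% oxygen (normoxia), all taken 12 h after interleukin-6 (IL-6) was added at 100 ng/ml. The libraries were chosen by their labels alone, and no measured value entered the choice. Chondrocytes are the cells of cartilage, and all 6 libraries came from wild-type primary cells cultured from mouse cartilage. The series concerns cartilage destruction in osteoarthritis.

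The other 12 libraries are untreated wild-type chondrocytes, with 3 libraries in each of 4 groups: hypoxia and normoxia at 12 h, and hypoxia and normoxia at 0 h. All cells were kept at their oxygen level before the stimulation, so the 12 h count the time with or without IL-6 in serum-free medium and not the time at low oxygen. The sources used here do not give the time already spent in hypoxia. The treatment text speaks of IL-6 or IL-6R, its receptor, while the sample labels name IL-6 alone, and whether the receptor was also present cannot be told from them. The labels number the libraries of each group 1 to 3, and the library names carry a code shared by all libraries of the same number. What the code stands for is not stated, and no animal or culture of origin is given. P-values therefore reflect the spread between these libraries, which may be technical.

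Cartilage has no blood vessels, and chondrocytes normally live at low oxygen. Cells read oxygen through prolyl hydroxylases, which mark the alpha subunits of the hypoxia-inducible factors (HIF) for destruction while oxygen is present. When oxygen is short the HIF proteins persist and switch on genes of glycolysis, of angiogenesis and, in chondrocytes, of matrix production. IL-6 is a cytokine that binds its receptor together with gp130 and acts through JAK kinases and the transcription factor STAT3, and in joints it is known for its part in inflammation and cartilage loss. Comparing hypoxia with normoxia in the presence of IL-6 asks which transcripts differ with oxygen in cells that also receive this inflammatory signal.

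The values were read counts for 63244 UCSC transcript identifiers. The deposited table gives no gene symbols, and 0 of its identifiers were found in the reference gene tables, so no gene is named here. Chondrocyte markers, markers of other cell types and HIF or STAT3 target genes were therefore not analysed here, and the labelled cell type was not checked against its markers. Each identifier stands for a transcript, and since 1 gene can have several, numbers of identifiers do not count genes. Reads that fell on more than 1 identifier were set apart by the counting and made up 43.3% to 49.8% of uniquely aligned reads in the 6 libraries, so overlapping transcripts were measured from only part of their reads.

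Assigned reads in the hypoxia IL-6 libraries numbered 10241162, 6764138 and 7125659 for replicates 1, 2 and 3. In the normoxia IL-6 libraries they numbered 5502257, 7845778 and 9500166. At these depths a count of 0 allows up to 3 counts, which is 0.293 to 0.545 CPM (read counts scaled by library size), for counting error only. Of the 63244 identifiers, 28224 had at least 1 read in the 6 libraries and 13432 passed the filter on low counts over all 18. No identifier that passed it was at 0 in all 3 libraries of either group. The hypoxia IL-6 libraries were sequenced in lanes 3, 6 and 8 and the normoxia IL-6 libraries in lanes 2, 6 and 7, so lane 6 alone held both. For the other IL-6 libraries lane and oxygen cannot be told apart within the 6. Over all 18 libraries, lane 3 also held both oxygen levels, since untreated normoxia libraries were sequenced there.

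With IL-6 present, 389 of the 13432 tested identifiers (2.90%) differed between hypoxia and normoxia, 180 of them higher (1.34%) and 209 lower (1.56%) in hypoxia. An identifier counted as called when its Benjamini-Hochberg adjusted p was under 0.05 by edgeR's quasi-likelihood test. The log2 fold changes of the higher identifiers had a median of 1.72 and ran from 0.68 to 6.17. Those of the lower identifiers had a median of -1.35 and ran from -0.63 to -5.01. The median over all tested identifiers was 0.03. At least a 2-fold change was seen in 162 of the higher and 168 of the lower identifiers, at least 4-fold in 61 and 53, and at least 8-fold in 21 and 16. The CPM values of the hypoxia and normoxia libraries did not overlap for any of the 389, while over all tested identifiers 2287 (17.0%) had no overlap.

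The 180 higher identifiers together held 28414, 34499 and 21970 CPM in hypoxia replicates 1, 2 and 3, against 9333, 10378 and 7387 CPM in normoxia replicates 1, 2 and 3. The 209 lower identifiers together held 32800, 26936 and 35377 CPM in hypoxia, against 84292, 61314 and 69270 CPM in normoxia. Because these sums run over identifiers picked for differing, they describe how many reads the lists carry and are no test. The lower list carried more reads than the higher list in each normoxia library, and in hypoxia the sums of the lists lay closer together. A large part of the lower sums came from 1 identifier. It held 45787, 25016 and 30661 CPM in normoxia replicates 1, 2 and 3, and 14316, 12995 and 16718 CPM in hypoxia.

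The count of 389 depended on single libraries. It was 183 without hypoxia IL-6 replicate 1 and 187 without replicate 2, and 211, 246 and 220 without normoxia IL-6 replicate 1, 2 or 3. Without hypoxia IL-6 replicate 3 it was 351. Of the 389, 121 were called in all 6 of these leave-outs, 64 higher and 57 lower, 26 were called in none, and 0 changed direction in any. With only the 6 compared libraries in the fit, 139 were called, 72 higher and 67 lower.

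**Figure D1:**
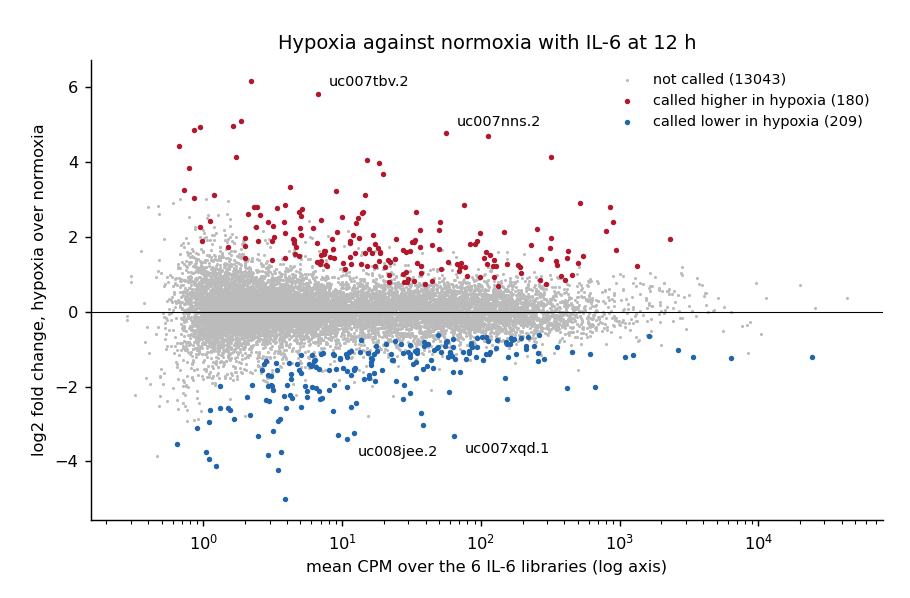
Each point is 1 of the 13432 tested identifiers, with its mean CPM over the 6 IL-6 libraries on a log axis and its log2 fold change, hypoxia over normoxia, on the other. Red points are the 180 identifiers called higher and blue points the 209 called lower in hypoxia; called identifiers run from under 1 CPM to 24249 CPM, and the 4 labelled ones are those printed by identifier.

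Calls were spread over the whole range of read levels. CPM also grows with transcript length, which was not used here, so these classes order identifiers by reads and not by molecules. Among identifiers with a mean under 1 CPM, 10 of 715 were called (1.40%), and from 1 to 10 CPM 132 of 7080 were (1.86%). From 10 to 100 CPM 168 of 3934 were called (4.27%), and at 100 CPM or more 79 of 1703 (4.64%). The sizes ran the other way, with a median absolute log2 fold change among called identifiers of 3.39, 2.0, 1.30 and 1.20 in these classes, from the lowest to the highest. Identifiers with few reads need a larger change to pass, so the classes differ in what could be detected.

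Of the called identifiers, 137 higher and 163 lower averaged at least 5 CPM in the 6 libraries, and within each direction these were ordered by the size of their log2 fold change. The first 2 in each direction are printed by identifier. The largest rise among them was in uc007tbv.2, at 14.6, 15.7 and 9.41 CPM in hypoxia replicates 1, 2 and 3, against 0.184, 0.380 and 0.102 CPM in normoxia replicates 1, 2 and 3. It was thus near the detection floor in normoxia and well above it in each hypoxia library. Its log2 fold change was 5.82 (SE 0.52, adjusted p = 8.55e-06 by edgeR). The normoxia side rested on 5 reads in all, against 319 in hypoxia, and the ratio of the summed counts was 61.6 with an exact 95% interval of 26.1 to 191 that covers counting error only.

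The identifier uc007nns.2 was second, at 104, 105 and 115 CPM in the 3 hypoxia libraries against 4.59, 4.56 and 2.85 CPM in the 3 normoxia libraries. Both groups were tight, and the lowest hypoxia value lay far above the highest normoxia value. The group means were 108 ± 6.07 CPM in hypoxia and 4.0 ± 0.998 CPM in normoxia (SD, n = 3 each), a log2 fold change of 4.77 (SE 0.33, adjusted p = 2.41e-07 by edgeR). It is much better counted than uc007tbv.2, with 2587 reads in hypoxia and 89 in normoxia.

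Among the lower identifiers, uc008jee.2 had 1.69, 1.49 and 2.32 CPM in hypoxia against 21.7, 26.2 and 11.4 CPM in normoxia. Normoxia replicate 3 was the lowest of its group, and the groups did not overlap. The log2 fold change was -3.41 (SE 0.59, adjusted p = 0.00313 by edgeR). This call did not hold when replicate 1 of both IL-6 groups was left out together (adjusted p = 0.0711) or replicate 2 of both (adjusted p = 0.0609). The identifier uc007xqd.1 had 7.44, 19.7 and 7.64 CPM in hypoxia against 105, 89.6 and 153 CPM in normoxia, with hypoxia replicate 2 the highest of its group. Its log2 fold change was -3.34 (SE 0.46, adjusted p = 0.000542 by edgeR).

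All 4 kept their direction without IL-6. At 12 h untreated, uc007tbv.2 averaged 12.4 ± 4.31 CPM in hypoxia and 0.367 ± 0.129 CPM in normoxia (SD, n = 3 each), and uc007nns.2 averaged 62.1 ± 7.5 CPM in hypoxia and 3.35 ± 0.386 CPM in normoxia. The level of uc007nns.2 in hypoxia was higher with IL-6 than without it, at 104 to 115 CPM against 53.7 to 68.2 CPM, with no overlap. That difference did not pass the test (log2 fold change 0.80, SE 0.28, unadjusted p = 0.00998, adjusted p = 0.519 by edgeR). The test did not pair libraries by number. Untreated uc008jee.2 averaged 2.20 ± 0.310 CPM in hypoxia and 25.3 ± 14.5 CPM in normoxia, and untreated uc007xqd.1 averaged 15.1 ± 9.76 CPM in hypoxia and 168 ± 37.3 CPM in normoxia. The untreated log2 fold changes at 12 h were 5.05 for uc007tbv.2 (edgeR adjusted p = 1.38e-05) and 4.21 for uc007nns.2 (edgeR adjusted p = 1.41e-06). They were -3.51 for uc008jee.2 (edgeR adjusted p = 0.00238) and -3.46 for uc007xqd.1 (edgeR adjusted p = 0.000359).

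**Figure D2:**
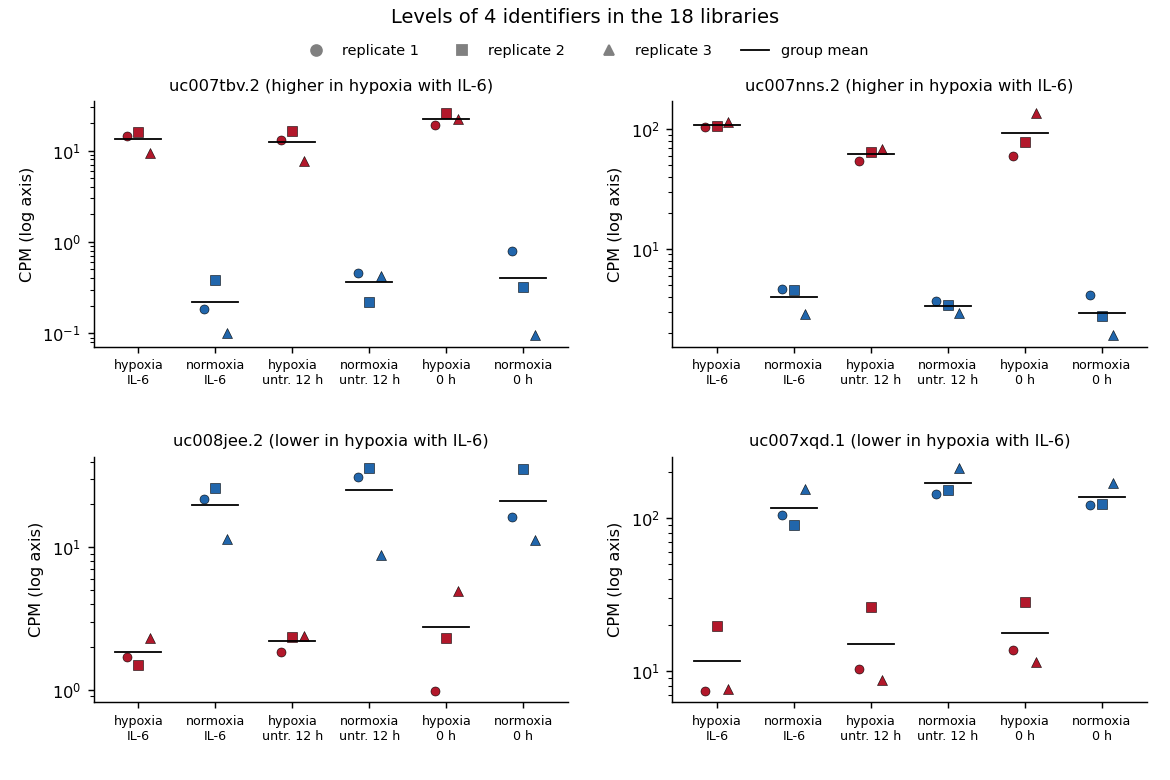
CPM on a log axis of the 4 printed identifiers in each of the 18 libraries, with hypoxia in red, normoxia in blue, the replicate number by symbol and the group mean as a line. The hypoxia and normoxia libraries of each pair of groups do not overlap, for example 9.41 to 15.7 CPM in hypoxia against 0.102 to 0.380 CPM in normoxia for uc007tbv.2 with IL-6.

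Ranks 3 to 12 extended over a wide range of levels. The 10 higher identifiers had log2 fold changes of 2.78 to 4.68, with group means of 16.2 to 1484 CPM in hypoxia and 1.74 to 216 CPM in normoxia. The third had 190, 187 and 274 CPM in hypoxia against 6.62, 11 and 7.63 CPM in normoxia, with the smallest adjusted p of all tested identifiers (log2 fold change 4.68, SE 0.29, adjusted p = 6.55e-08 by edgeR). The most heavily read of them, in twelfth place, had 1632, 1874 and 946 CPM in hypoxia against 162, 373 and 112 CPM in normoxia. All 12 leading higher identifiers were called in each of the 6 leave-outs.

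The 10 lower identifiers of ranks 3 to 12 had log2 fold changes of -3.30 to -2.34, with group means of 1.44 to 51.2 CPM in hypoxia and 8.59 to 259 CPM in normoxia. The twelfth was the most tightly measured, at 10.7, 7.29 and 9.14 CPM in hypoxia against 52.0, 49.6 and 37.0 CPM in normoxia (log2 fold change -2.34, SE 0.25, adjusted p = 5.3e-05 by edgeR). Of the 12 leading lower identifiers, 9 were called in all 6 leave-outs. The fifth, with 5.74, 3.15 and 16 CPM in hypoxia against 59.2, 33.0 and 112 CPM in normoxia, had an adjusted p of 0.0469 by edgeR and was called in 1 of the 6, the one without hypoxia IL-6 replicate 3. The sixth was not called without hypoxia IL-6 replicate 1 or 3 or normoxia IL-6 replicate 2, with an edgeR adjusted p of up to 0.137. The eleventh was not called without hypoxia IL-6 replicate 1 or 2, with an edgeR adjusted p of up to 0.0663.

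Of the 12 leading identifiers in each direction, 11 higher and 12 lower were also called in untreated cells at 12 h, and 11 and 11 at 0 h. Of all tested identifiers, 1.94% were called higher and 3.57% lower untreated at 12 h, and 4.95% in either direction at 0 h. All 24 had the same sign in both untreated comparisons, against 75.4% of all tested identifiers at 12 h and 73.3% at 0 h. The 24 were picked for large called changes with IL-6, so these counts are no test. The higher identifier without an untreated call was the same one at both times, in ninth place. It had 49.6, 20.9 and 7.77 CPM in hypoxia with IL-6 against 3.49, 2.53 and 3.05 CPM in normoxia with IL-6, a log2 fold change of 3.12 (SE 0.48, adjusted p = 0.0013 by edgeR). In untreated cells at 12 h it had 1.85, 1.18 and 2.40 CPM in hypoxia against 0.308, 0.551 and 0.523 CPM in normoxia, a log2 fold change of 1.86 (SE 0.67, adjusted p = 0.124 by edgeR). The order hypoxia with IL-6, normoxia with IL-6, hypoxia untreated, normoxia untreated held without overlap between neighbours, and the hypoxia libraries with IL-6 ranged widely among themselves. The difference between its 2 oxygen effects did not pass the test, at a log2 difference of 1.26 (SE 0.86, edgeR unadjusted p = 0.163).

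**Figure D3:**
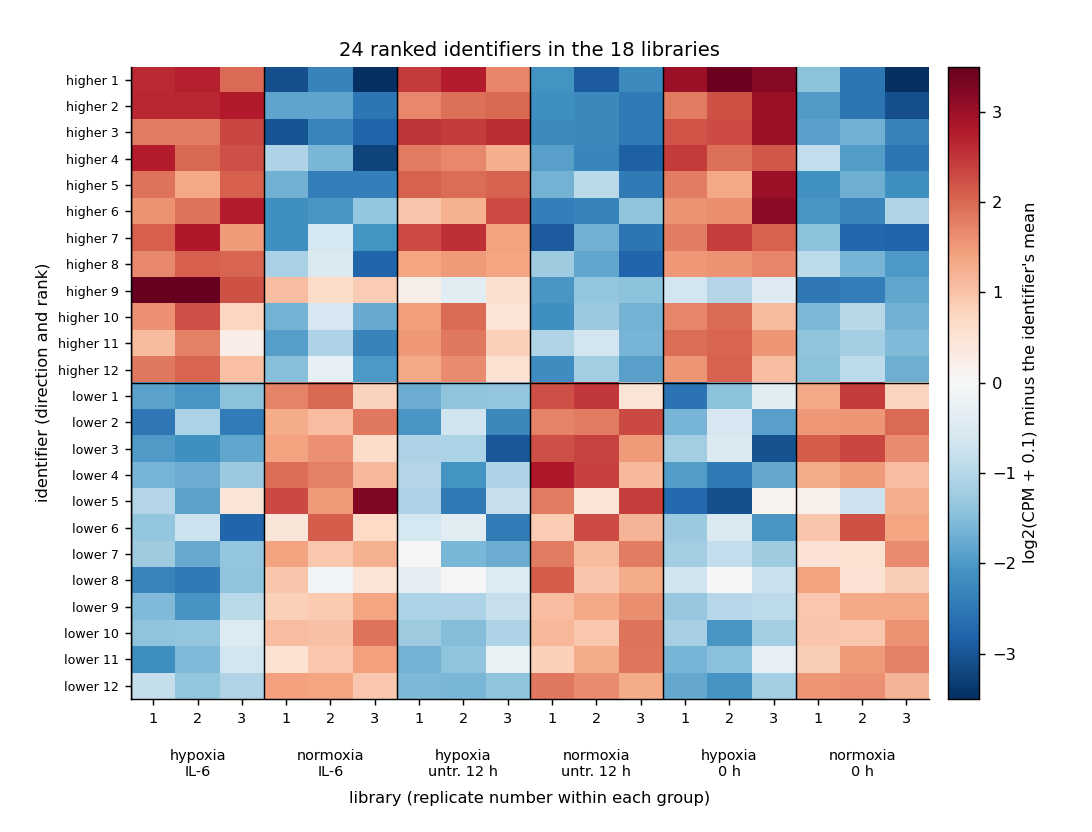
The 24 leading identifiers (down) in the 18 libraries (across), coloured by log2(CPM + 0.1) minus the identifier's mean over all libraries, red above and blue below that mean, with the scale ending at 3.5 in either direction. The first 12 are red in hypoxia and blue in normoxia in each treatment state except the ninth, which is highest with IL-6, and the last 12 are mostly blue in hypoxia and red in normoxia.

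The 10 leading identifiers by mean CPM in hypoxia and the 10 in normoxia shared 8, and of the 12 in either list 2 were called, both lower in hypoxia, beside 4.64% of all identifiers at 100 CPM or more. The first of these 2 had 14316, 12995 and 16718 CPM in hypoxia against 45787, 25016 and 30661 CPM in normoxia, a log2 fold change of -1.20 (SE 0.31, adjusted p = 0.0397 by edgeR). It was not called without hypoxia IL-6 replicate 1 or 2 or normoxia IL-6 replicate 1 or 3, with an edgeR adjusted p of up to 0.214. The other had 4455, 2422 and 4478 CPM in hypoxia against 8433, 9150 and 9268 CPM in normoxia, a log2 fold change of -1.24 (SE 0.27, adjusted p = 0.0154 by edgeR). It was not called without replicate 2 of either IL-6 group, with an edgeR adjusted p of up to 0.0940. The identifier with the most reads of all had 25507, 54471 and 67086 CPM in hypoxia against 47048, 24503 and 41742 CPM in normoxia, so the groups overlapped (log2 fold change 0.38, SE 0.68, adjusted p = 0.904 by edgeR). Among called higher identifiers the most heavily read had 3361, 5583 and 2037 CPM in hypoxia against 1043, 1192 and 621 CPM in normoxia (log2 fold change 1.94, SE 0.39, adjusted p = 0.0092 by edgeR), and was not called without hypoxia IL-6 replicate 2 or normoxia IL-6 replicate 3, with an edgeR adjusted p of up to 0.0571.

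Whole libraries of the same oxygen level were not always closer to each other than to those of the other level. The root mean square difference in log2 CPM over all tested identifiers was 0.545 to 0.934 between hypoxia libraries, 0.673 to 0.815 between normoxia libraries, and 0.644 to 0.998 between libraries of different oxygen levels. Hypoxia replicate 3 was closest to normoxia replicate 3 (0.644) and farther from hypoxia replicates 1 (0.754) and 2 (0.934). Over the 2000 most variable identifiers, the first principal component, with 42.0% of the variance, put hypoxia replicate 3 at 19.4 among the normoxia libraries at 25.1, -8.28 and 29.1, with hypoxia replicates 1 and 2 at -24.8 and -40.5. The second component, with 34.2%, put the hypoxia libraries at 8.23, 5.88 and 42.3 and the normoxia libraries at -23.0, -31.4 and -2.02. All 3 hypoxia libraries thus lay above all 3 normoxia libraries on the second component and not on the first. Across all tested identifiers, the distances between libraries of the same oxygen level and of different levels covered overlapping ranges.

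Hypoxia replicate 3 was the only one of the 6 in lane 8. It had 23.3% of uniquely aligned reads outside annotated features, against 16% and 14.2% in hypoxia replicates 1 and 2 and 22.1%, 13.3% and 19.0% in the normoxia libraries, and its 10 leading identifiers took 21.2% of assigned reads, against 14.5% to 20.5% in the other 5. It was the hypoxia library nearest to normoxia for 107 of the 180 higher identifiers (59.4%, against 48.5% of all tested identifiers with a positive log2 fold change) and for 102 of the 209 lower ones (48.8%, against 50.2%). The median log2 ratio of a hypoxia library over the normoxia mean was 1.69, 1.79 and 1.45 for replicates 1, 2 and 3 among the higher identifiers and -1.34, -1.40 and -1.24 among the lower. Without all 3 hypoxia libraries numbered 3 in the fit, 626 identifiers were called, 259 higher and 367 lower. The part of lane or read quality in these differences was not tested.

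Each same-numbered pair of IL-6 libraries was also compared with calls made from the other 2 pairs. Leaving out number 1, 2 or 3 in both IL-6 groups gave 80, 116 and 168 called identifiers, and all of them had the same sign in the pair that was left out, against 59.2%, 64.8% and 56.5% of all tested identifiers. In the left-out pair the median log2 ratio, hypoxia over normoxia, was 2.11, 1.98 and 1.79 for the identifiers called higher and -1.94, -1.58 and -1.29 for those called lower. In the fits that made the calls, the medians were 2.30, 2.32 and 2.13 for the higher and -2.07, -1.98 and -1.81 for the lower. The changes were thus smaller in the left-out pair each time. The pair numbered 2 was sequenced within lane 6. In it the log2 ratios of uc007tbv.2, uc007nns.2, uc008jee.2 and uc007xqd.1 were 4.6, 4.45, -3.90 and -2.17, computed from log2 CPM with a prior count of 2, which draws low values together. All 389 called identifiers had the called sign in that pair, which the lack of overlap between the groups already fixes.

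The oxygen difference in untreated cells at 12 h, measured in 6 other libraries, covered most of the same identifiers. There 741 were called (5.52%), 261 higher (1.94%) and 480 lower (3.57%) in hypoxia. All 389 identifiers called with IL-6 had the same sign untreated, against 75.4% of all tested identifiers. Both comparisons called 132 higher identifiers, which is 73.3% of those higher with IL-6 and 50.6% of those higher untreated, and 184 lower ones, which is 88.0% and 38.3%. The 741 became 395, 482 and 498 without hypoxia untreated 12 h replicate 1, 2 or 3, and 434, 453 and 483 without normoxia untreated 12 h replicate 1, 2 or 3. The libraries of the comparisons are different, but within an oxygen level those with the same number deviated together, so they are not fully separate measurements.

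The sizes of the oxygen difference stood side by side as follows. The 180 identifiers called higher with IL-6 had a median log2 fold change of 1.72 with IL-6 and 1.45 untreated, and the 209 called lower had -1.35 with IL-6 and -1.45 untreated. Picking from the untreated side turned the order, with 1.40 with IL-6 and 1.62 untreated for the 261 called higher untreated and -0.87 with IL-6 and -1.19 untreated for the 480 called lower untreated. Each list was picked on one of the comparisons, so neither order is a result. The log2 fold changes of the comparisons correlated across all 13432 identifiers, which are no independent replicates, at 0.715 (Pearson) and 0.636 (Spearman). This is a description, and the deviations shared by same-numbered libraries enter it.

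**Figure D4:**
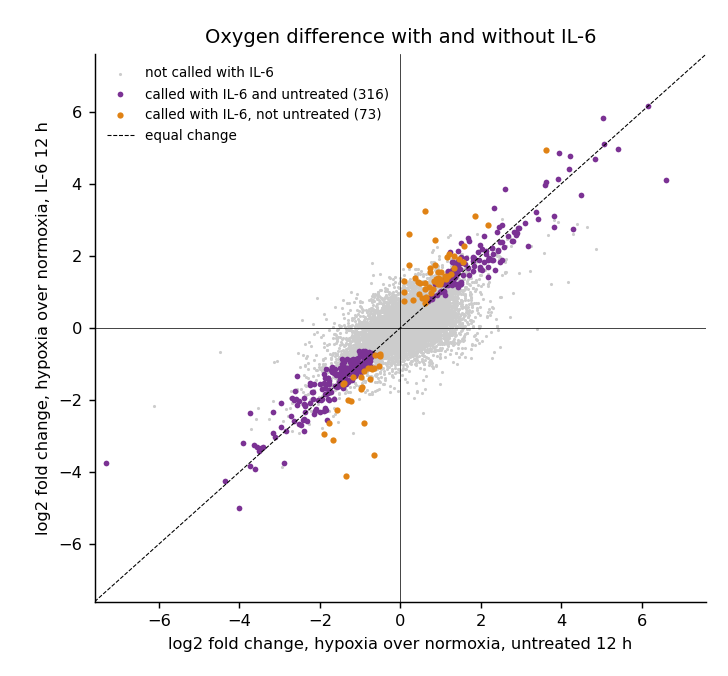
Log2 fold change, hypoxia over normoxia, with IL-6 (vertical) against untreated at 12 h (horizontal) for each tested identifier, with the dashed line marking equal change. Purple points are the 316 called in both and orange points the 73 called with IL-6 alone, and all 389 lie in the quadrants where both changes have the same sign.

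At 0 h, 665 identifiers were called between hypoxia and normoxia (4.95%), and 387 of the 389 had the same sign there, against 73.3% of all tested identifiers. In all 3 treatment states 112 identifiers were called higher and 146 lower. A set of 50 was called with IL-6 and in neither untreated comparison, 31 higher and 19 lower, and 48 of them had the same sign in both untreated comparisons. Passing the threshold with IL-6 and missing it untreated does not show that the oxygen difference changed. For the change itself, 7 of the 50 had an unadjusted p under 0.05 by edgeR, beside 167 of all 13432 tested identifiers. Picking the 50 by a call with IL-6 and none untreated favours a low p here, so the 7 are no test of a change. Of the 10 leading identifiers among the 50, 5 in each direction, 2 were called in all 6 leave-outs, and 1 of these is the ninth-ranked higher identifier. The other had 14.8, 12.6 and 11.9 CPM in hypoxia with IL-6 against 4.78, 4.30 and 3.36 CPM in normoxia with IL-6 (log2 fold change 1.67, SE 0.27, adjusted p = 0.00195 by edgeR). Untreated, it had 10.3, 12.5 and 6.39 CPM in hypoxia against 5.39, 7.6 and 4.71 CPM in normoxia (log2 fold change 0.73, SE 0.27, adjusted p = 0.135 by edgeR). It was chosen for display after its values were seen. Its hypoxia and normoxia libraries overlapped untreated and did not with IL-6.

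The direct test asked whether the difference between hypoxia and normoxia at 12 h was itself different with IL-6 than without it. Without a block it called 0 of 13432 identifiers (0%) by edgeR, with 167 at an unadjusted p under 0.05, and DESeq2 called 0, with 275 under that unadjusted limit. With the replicate number as a block within each oxygen level, which compares each IL-6 library with the untreated library of its own number, it called 6 (0.0447%), with 1078 at an unadjusted p under 0.05. The same pairing entered as an estimated correlation of 0.563 in limma-voom gave 0 calls, with 944 at an unadjusted p under 0.05. A block with 1 term per number across oxygen, that block with lane, and lane as a term also gave 0 calls by edgeR, with 376, 513 and 542 at an unadjusted p under 0.05. If no identifier changed, 671.6 of the 13432 would be under that unadjusted limit by chance. The edgeR fits without a block, with lane or with numbers taken across oxygen had fewer. Those with pairing within oxygen had more. A number below chance marks a cautious test, so the 0 calls do not show that the oxygen difference stayed the same. For 4 of the 6 called with the block within oxygen, the oxygen difference was shifted upward with IL-6 and for 2 downward. Without the 12 h libraries numbered 1, 2 or 3 this blocked test called 0, 3 and 4 identifiers, and whether these are among the 6 was not examined. The number of calls thus depends on how the pairing is modelled and on single sets of libraries.

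The clearest of the 6, identifier 1, had 976, 587 and 575 CPM in hypoxia with IL-6 against 265, 282 and 316 CPM in normoxia with IL-6. Untreated, it had 74.2, 45 and 52.2 CPM in hypoxia against 61.9, 49.6 and 50.1 CPM in normoxia. The oxygen groups were thus apart with IL-6 and overlapped without it. The log2 fold change, hypoxia over normoxia, was 1.31 with IL-6 (SE 0.30, adjusted p = 0.0199 by edgeR) and 0.09 untreated (SE 0.30, adjusted p = 0.914 by edgeR), and the blocked log2 difference between them was 1.21 (SE 0.17, adjusted p = 0.00121 by edgeR). Its call for oxygen with IL-6 was lost without hypoxia IL-6 replicate 1 or any 1 normoxia IL-6 library, with an edgeR adjusted p of up to 0.162. Identifier 2 stood at 58.0, 52.5 and 38.6 CPM in hypoxia against 46.7, 40.4 and 30.0 CPM in normoxia with IL-6, where the groups overlapped. Untreated it stood at 28.5, 37.5 and 24.8 CPM in hypoxia against 58.3, 58.5 and 41.6 CPM in normoxia, lower in hypoxia (log2 fold change -0.80, SE 0.22, adjusted p = 0.0432 by edgeR), and its blocked log2 difference was 1.16 (SE 0.20, adjusted p = 0.014 by edgeR).

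Identifiers 3 and 4 had blocked log2 differences of 0.96 (SE 0.18) and 0.71 (SE 0.14), and identifiers 5 and 6 had -0.91 (SE 0.17) and -1.84 (SE 0.36), each at an edgeR adjusted p of 0.036. Identifier 4 was lower in hypoxia in both states, at 111 ± 11.2 CPM in hypoxia and 246 ± 83.0 CPM in normoxia with IL-6, and at 87.3 ± 7.73 CPM in hypoxia and 312 ± 96 CPM in normoxia untreated (SD, n = 3 each). Identifier 6 averaged 6.64 ± 3.02 CPM in hypoxia and 5.36 ± 2.88 CPM in normoxia with IL-6, and 14.6 ± 7.56 CPM in hypoxia and 3.28 ± 1.93 CPM in normoxia untreated (SD, n = 3 each). Its levels were the lowest of the 6. Identifiers 3 and 5 were not called for oxygen in either state, with edgeR adjusted p of 0.781 and 0.992 with IL-6 and 0.147 and 0.277 untreated.

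**Figure D5:**
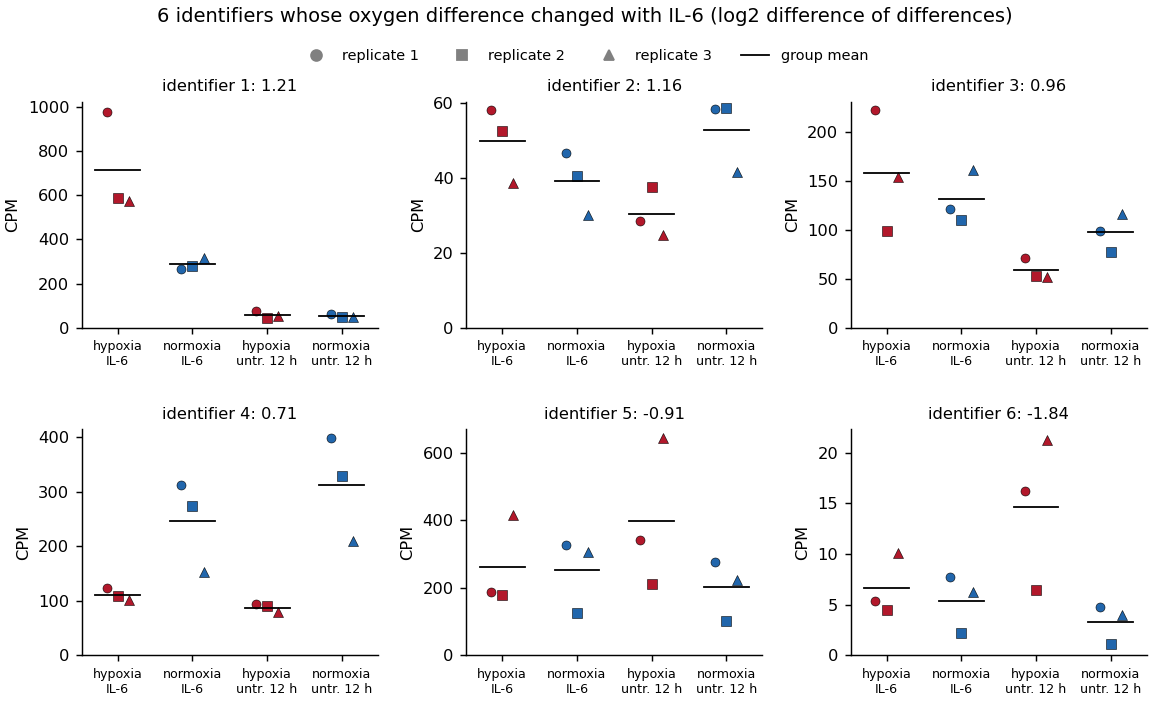
CPM of the 6 identifiers called by the blocked test, in the 12 libraries at 12 h, with hypoxia in red, normoxia in blue, the replicate number by symbol, the group mean as a line and the blocked log2 difference above each panel. Identifier 1 lies at 575 to 976 CPM in hypoxia with IL-6 and at 265 to 316 CPM in normoxia with IL-6, and at 45 to 74.2 CPM in all untreated libraries.

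The identifiers raised by IL-6 were set beside their oxygen difference. IL-6 raised 52 identifiers in hypoxia (0.387%) and 27 in normoxia (0.201%) at an edgeR adjusted p under 0.05, and 24 in both. Both lists come from the fit that does not pair libraries by number. In it 743 identifiers in hypoxia and 414 in normoxia had an edgeR unadjusted p under 0.05, against 671.6 by chance. Identifiers missing from the normoxia list may thus have been raised there too. The IL-6 comparisons use the same IL-6 libraries as the oxygen comparison, so only the values are set side by side. Over the 55 raised in either condition, the median log2 fold change, hypoxia over normoxia, was 0.29 with IL-6 and 0.07 untreated, against 0.03 and 0.07 over all tested identifiers, with a range from -1.76 to 3.12 with IL-6. For the 52 raised in hypoxia these medians were 0.31 with IL-6 and 0.06 untreated, for the 27 raised in normoxia 0.29 and 0.31, and for the 24 raised in both 0.33 and 0.32. The medians with and without IL-6 thus stood apart only in the sets that include identifiers called as raised in hypoxia and not in normoxia, a choice that itself uses the hypoxia IL-6 libraries, and no direction is read from them. Of the 55, 7 were called higher and 2 lower in hypoxia with IL-6, beside 1.34% and 1.56% of all tested identifiers. Of the 27 raised in normoxia, 2 were called higher and 2 lower. A rise with IL-6 in hypoxia was called from the same hypoxia IL-6 libraries, so these counts are no test of a link with oxygen. The ninth-ranked higher identifier and identifier 1 of the blocked test are among the 7.

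The other 5 of those called higher were at these levels. One averaged 160 ± 25.9 CPM in hypoxia and 37.5 ± 5.92 CPM in normoxia with IL-6, and 60.0 ± 17.0 CPM in hypoxia and 25.8 ± 1.01 CPM in normoxia untreated (SD, n = 3 each), with log2 fold changes for oxygen of 2.10 with IL-6 and 1.22 untreated (edgeR adjusted p = 5.3e-05 and 0.00287). Another averaged 51.4 ± 12.1 CPM in hypoxia and 14.1 ± 0.948 CPM in normoxia with IL-6, and 19.1 ± 2.01 CPM in hypoxia and 7.12 ± 1.68 CPM in normoxia untreated, with log2 fold changes of 1.87 and 1.43 (edgeR adjusted p = 0.00026 and 0.00229). In both, the 3 hypoxia libraries with IL-6 were the highest of the 12 libraries at 12 h. One more averaged 180 ± 74.4 CPM in hypoxia and 69.5 ± 11.4 CPM in normoxia with IL-6, and 35.3 ± 6.01 CPM in hypoxia and 27.4 ± 8.07 CPM in normoxia untreated. Its oxygen difference was called with IL-6 (log2 fold change 1.37, edgeR adjusted p = 0.00692) and not untreated (0.37, adjusted p = 0.478), while the blocked log2 difference of 0.96 did not pass (SE 0.26, adjusted p = 0.329 by edgeR), and the call with IL-6 was lost without hypoxia IL-6 replicate 1 (edgeR adjusted p = 0.069). The remaining pair averaged 21.0 and 8.15 CPM in hypoxia and 4.10 and 2.01 CPM in normoxia with IL-6, with log2 fold changes of 2.36 and 2.04 (edgeR adjusted p = 0.00189 and 0.00998). Both were also called higher in hypoxia untreated at 12 h, with log2 fold changes of 1.51 and 2.14 (edgeR adjusted p = 0.0397 and 0.0396). With IL-6 the second of them was not called without hypoxia IL-6 replicate 1 or normoxia IL-6 replicate 3, with an edgeR adjusted p of up to 0.0751.

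The 2 IL-6-raised identifiers that were lower in hypoxia stood at very different sizes of change. The first had 127, 96.6 and 108 CPM in hypoxia with IL-6 against 223, 177 and 180 CPM in normoxia with IL-6, and 55.8, 43.5 and 46.6 CPM in hypoxia against 99.1, 76.5 and 89.5 CPM in normoxia untreated. Its oxygen log2 fold changes of -0.80 with IL-6 and -0.86 untreated were nearly equal (SE 0.18 each, edgeR adjusted p = 0.0169 and 0.0085), and the call with IL-6 was lost without hypoxia IL-6 replicate 2 or normoxia IL-6 replicate 1, with an edgeR adjusted p of up to 0.105. The second had 22.4, 10.3 and 13.4 CPM in hypoxia with IL-6 against 55.3, 45.5 and 56.3 CPM in normoxia with IL-6, and 1.23, 1.35 and 3.20 CPM in hypoxia against 8.78, 9.03 and 16.1 CPM in normoxia untreated. With IL-6 its hypoxia libraries overlapped the untreated normoxia libraries. Its oxygen log2 fold change was -1.76 with IL-6 and -2.61 untreated (SE 0.34 and 0.42, edgeR adjusted p = 0.00791 and 0.00157), the difference between them did not pass the test (log2 difference 0.85, SE 0.53, edgeR unadjusted p = 0.128), and the call with IL-6 was lost without hypoxia IL-6 replicate 2 (edgeR adjusted p = 0.063).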

How the data were processed

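The table of 18 libraries was deposited as raw read counts per UCSC transcript identifier, with no normalization. Per the submitters' processing notes, reads were aligned to mm10 with TopHat2, counted with HTSeq and tested with DESeq2. Their versions are not given in the sources used here. Ribosomal RNA was removed before library construction, per the labels' protocols. The 5 summary lines of the table name no identifier and were left out. Among uniquely aligned reads in the 6 IL-6 libraries, 32.9% to 38.0% were assigned, 43.3% to 49.8% were ambiguous and 13.3% to 23.3% lay outside features. Reads aligned at several places, kept apart by the counting, numbered 0.764 to 3.08 per assigned read.

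Identifiers were filtered with filterByExpr by group, scaled with TMM and tested with the robust quasi-likelihood F-test of edgeR 4.0.16 in R 4.3.3, with a coefficient for each of the 6 groups of all 18 libraries. P-values were adjusted over all 13432 identifiers. SE was taken as the size of the log2 fold change over the root of its F statistic. CPM uses TMM-scaled library sizes, and distances use log2 CPM with a prior count of 2. Alternatives used limma 3.58.1 and DESeq2 1.42.0.

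The identifiers printed are the first 2 in each direction by absolute log2 fold change among those called, with a mean of at least 5 CPM and no overlap, and ranks 3 to 12 are described without names. The comparison, lists and rules were chosen with earlier results of these data known. Marker lists were not analysed here, since no identifier has a symbol.

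Whether numbers pair libraries was checked from the correlation of deviations from group means. Within hypoxia, IL-6 and untreated 12 h libraries of the same number correlated at 0.350, 0.567 and 0.635. Within normoxia they correlated at 0.694, 0.661 and 0.502. Libraries of different numbers correlated at -0.593 to 0.215 within hypoxia and at -0.544 to -0.0311 within normoxia. The numbers were therefore used as pairs within an oxygen level. The library names share a code within each number without saying what it stands for, so the pairing is a reading taken from the data. In hypoxia each number also kept to 1 lane. In normoxia the IL-6 and untreated 12 h libraries of number 1 shared lane 2 and those of number 3 shared lane 7. Those of normoxia number 2 lay in lanes 6 and 3. Where the lane was shared, number and lane cannot be told apart.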

Additional observations from a re-analysis of the deposited data

Results flagged for a closer look

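The difference between hypoxia and normoxia at 12 h passed the test of a change with IL-6 for 6 identifiers in edgeR's quasi-likelihood test with the replicate number as a block within each oxygen level. The log2 difference, oxygen effect with IL-6 minus oxygen effect untreated, was 1.21 for identifier 1, 1.16 for identifier 2, 0.96 for identifier 3, 0.71 for identifier 4, -0.91 for identifier 5 and -1.84 for identifier 6. Without the block 0 were called by edgeR, with 167 at an unadjusted p under 0.05, and 0 by DESeq2. With the pairing entered as an estimated correlation in limma-voom 0 were called, with 944 at an unadjusted p under 0.05. By chance 671.6 of the 13432 tested identifiers would be under that limit. The 167 lies below this, so the 0 calls without the block do not show that the oxygen difference stayed the same. With a block of 1 term per number across oxygen, with that block and lane, and with lane as a term, 0 were called by edgeR. Leaving out the 12 h libraries numbered 1, 2 or 3 brought the blocked count to 0, 3 and 4.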

How the results depend on the processing

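The 4 printed identifiers kept their direction under all 19 alternatives, with log2 fold changes of 5.22 to 6.49 for uc007tbv.2, 4.36 to 4.93 for uc007nns.2, -4.13 to -3.06 for uc008jee.2 and -4.12 to -2.78 for uc007xqd.1. All but uc008jee.2 were called under each, and it missed the threshold without replicate 1, or without replicate 2, of both IL-6 groups. The number of identifiers called with IL-6, 389, was 139 in a fit of the compared groups alone, 1117 with lane as a term, 654 by DESeq2 and 626 without the 3 hypoxia libraries of replicate 3. It ranged from 183 to 351 when 1 library was left out, and was 80, 116 and 168 without replicate 1, 2 and 3 of both IL-6 groups. The untreated count, 741, was 300 in a fit of its own groups alone, 1581 with lane, 914 without the 3 hypoxia libraries of replicate 3, and 395 to 498 when 1 library was left out. With no filter on low counts the interaction called 1 identifier, and more identifiers were called higher (281) than lower (246) with IL-6, so which direction had more calls changed with the filter. It also changed in the fit of the compared groups alone (72 higher, 67 lower), in the replicate block with lane, and without hypoxia IL-6 replicate 1 or 2, normoxia IL-6 replicate 2, or replicate 1 or 2 of both. The counts with RLE scaling (378), a filter of at least 1 CPM in at least 6 libraries, which let 13647 identifiers through (390), and limma-voom with a correlation of 0.563 within number and oxygen (539, 235 higher and 304 lower) stayed within 1.5 times.

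Across oxygen, libraries of the same replicate number deviated together only in part. Same-numbered IL-6 libraries correlated at -0.0389, 0.497 and 0.491 for numbers 1, 2 and 3, against -0.595 to 0.319 for different numbers. The libraries of number 1 thus did not deviate together, while those of numbers 2 and 3 did. Both IL-6 libraries of number 2 were in lane 6, so number and lane cannot be told apart there. The replicate block with 1 term per number gave 992 calls with IL-6 and 1723 untreated, and the replicate block with lane gave 1945 (1025 higher, 920 lower) and 1774. The interaction had 0 calls under both, with lane as a term and by limma-voom with the correlation within number and oxygen. It had 6 calls with the replicate block within oxygen, and 0, 3 and 4 without the 12 h libraries numbered 1, 2 and 3, chosen after seeing the data. The cause of these shifts was not tested. Depth limits identifiers with few reads, such as uc007tbv.2 in normoxia, which was near the 3-count floor. How far above that floor depth limits the calls was not tested.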
